A study of Mus musculus with 2 samples.

Results

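Mt1, Mt2, Slc30a1 and Slc39a10 are 4 of the 31053 features in the deposited matrices, and were chosen by gene symbol with earlier results of these same matrices known. Their levels are therefore given as a description, with no test. The study holds 2 libraries of 1 group, replicate 1 and replicate 2, prepared with a 10x Chromium 3′ kit. Both came from skin of wild-type mice of strain C57BL/6;CD1 at postnatal day 32, in mid anagen, when follicles grow hair. Cells labelled as hair follicle stem cells were sorted for the surface protein CD34 and for H2BGFP, a green fluorescent histone driven by the K14 (keratin 14) promoter, so all animals carry that transgene and the sort favours cells in which this promoter is or was active. Nothing in the labels says how many animals gave each library or whether the libraries came from separate animals.

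Mt1 and Mt2 encode metallothioneins, small cysteine-rich proteins of the cytosol and nucleus that bind zinc and copper. Slc30a1 encodes ZnT1, the zinc exporter of the plasma membrane, and Slc39a10 encodes ZIP10, a plasma membrane importer that brings zinc into the cytosol. The zinc-sensing transcription factor MTF1 is known to activate Mt1, Mt2 and Slc30a1 through metal response elements when free zinc rises, and zinc is needed for hair growth and keratinocyte differentiation.

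The promoter windows of the 3 known MTF1 targets are printed because the expression of Mt1 and Mt2 ran together and that of Slc30a1 did not. Each window is RefSeq sequence of GRCm38.p6, from 250 bases before to 50 after the annotated start, on the gene's own strand. Capitals mark the metal response element core, searched as TGCACNC and TGCGCNC on both strands. Mt1 lies at chr8:94178839-94179138 (plus strand), Mt2 at chr8:94172368-94172667 (plus strand) and Slc30a1 at chr1:191906531-191906830 (plus strand).
Mt1: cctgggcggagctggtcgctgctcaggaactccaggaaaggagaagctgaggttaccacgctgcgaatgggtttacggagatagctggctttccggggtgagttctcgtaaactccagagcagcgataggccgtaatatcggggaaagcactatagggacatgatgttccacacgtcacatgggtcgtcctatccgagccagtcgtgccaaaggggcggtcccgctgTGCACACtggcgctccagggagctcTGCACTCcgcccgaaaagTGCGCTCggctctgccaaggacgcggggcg
Mt2: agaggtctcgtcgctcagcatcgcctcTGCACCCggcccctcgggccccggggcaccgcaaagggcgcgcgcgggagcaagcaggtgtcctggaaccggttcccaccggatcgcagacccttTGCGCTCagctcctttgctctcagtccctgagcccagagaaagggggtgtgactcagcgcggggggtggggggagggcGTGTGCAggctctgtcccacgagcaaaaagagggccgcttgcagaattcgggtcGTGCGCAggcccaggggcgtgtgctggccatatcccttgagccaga
Slc30a1: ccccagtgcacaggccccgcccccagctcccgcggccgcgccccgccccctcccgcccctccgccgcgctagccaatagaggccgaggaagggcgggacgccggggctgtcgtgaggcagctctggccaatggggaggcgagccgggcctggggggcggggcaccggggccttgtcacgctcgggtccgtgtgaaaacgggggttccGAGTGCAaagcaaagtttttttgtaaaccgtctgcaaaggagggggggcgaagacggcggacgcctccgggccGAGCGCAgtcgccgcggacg

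The Mt1 window held 3 matches, a count reached by 1.97% of 32851 RefSeq windows of this length. The Mt2 window held 4, a count reached by 0.517% of windows, and the Slc30a1 window held 2, reached by 7.11%. At least 1 match was present in 25.7% of all windows, with TGCACNC in 12.6% and TGCGCNC in 15.4%. In both Slc39a10 windows these letters were not found. Neither window holds the protein-coding GENCODE starts at chr1:46854046, chr1:46888070 and chr1:46892852, so the sequence at those starts was not searched. GENCODE M21 also lists Mt1 starts at chr8:94179211 and chr8:94179241 and an Mt2 start at chr8:94172860, all downstream of the windows. A match is a description of the letters and not evidence of a bound site.

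By the GENCODE M21 gene models, Mt2 spans chr8:94172664-94173568 and Mt1 spans chr8:94179082-94180327, both on the plus strand with 5513 bases between them. Slc30a1 spans chr1:191906767-191913247 on the plus strand and Slc39a10 spans chr1:46807544-46892852 on the minus strand. The longest run of bases shared by the Mt1 and Mt2 transcripts compared was 20, so a longer read cannot match both without a mismatch.

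Replicate 1 held 6592 barcodes and 52344178 UMIs (unique molecular identifiers, which count captured mRNA molecules), and replicate 2 held 5080 and 38678103. Of these, 3918 and 3041 had 1000 genes or more and no more than 10% of UMIs from mitochondrial genes and were kept, of which 197 and 189 with under 5000 UMIs were left out. Cells were gated on marker genes after each was thinned to 5000 UMIs, which gave 3639 and 2792 keratinocytes. Cd34, the gene of the sorted surface protein, had a UMI in 29.8% and 32.4% of the thinned cells. Summed over keratinocytes, Krt14 stood at 4394 and 3772 UMIs per 1000000 UMIs (CPM) and Krt5, its partner keratin, at 2545 and 3315. The libraries share 11 barcodes, 3 of them among kept cells of both. The follicle states are named by the genes that gate them: Gdf10, Wfdc18, Fgf5, Edn2, Krtdap, Krt24 (outer bulge markers), upper follicle and inner root sheath. Keratinocytes that met no gate, called ungated, were 26.0% and 28.9% of the cells.

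The libraries differed in these genes before any state was considered, and each value below is therefore given for replicate 1 first and replicate 2 second. Over all keratinocytes, Mt1 stood at 322 and 1142 CPM, a ratio of 3.55. Mt2 stood at 168 and 336 CPM, a ratio of 2.01. Slc30a1 went the other way, at 99.9 and 66.7 CPM, a ratio of 0.667, and Slc39a10 stood at 246 and 354 CPM, a ratio of 1.44. The gap in Mt1 was not even across states: non-cycling cells of the Edn2 state had 8.61 times and those of the Wfdc18 state 3.33 times the replicate 1 level in replicate 2, against 1.20 times in the Fgf5 state. The mitochondrial share was 6.03% and 4.55%, and the summed level of 14 immediate early and heat shock genes, which mark stress during dissociation, was 16626 and 14729 CPM; their part in the gap was not tested. No correction was made for free RNA, and its part was not tested.

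In non-cycling cells, Mt1 and Mt2 were lowest in the Edn2 state and highest in the Krtdap, Krt24 and upper follicle gates. Mt1 stood at 19.5 and 168 CPM in the Edn2 state. It stood at 73.1 and 244 CPM in the Wfdc18 state. In the Fgf5 state it stood at 235 and 283 CPM. The order of these 3 was the same within each library, although the Wfdc18 range overlapped both its neighbours across libraries. Mt1 stood at 287 and 369 CPM in the Gdf10 state, just above the Fgf5 values. It stood at 645 and 1137 CPM in the Krtdap state, whose markers include Sostdc1, an extracellular inhibitor of BMP and Wnt signalling. Both Krtdap values lay above every value of the other 4 states.

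The largest Mt1 levels among non-cycling keratinocytes came from the Krt24 and upper follicle gates, with few cells except for Krt24 in replicate 2. The Krt24 gate had 2085 CPM in 16 cells of replicate 1 and 1161 CPM in 156 cells of replicate 2. The upper follicle gate, defined by Defb6, Krt79, Cst6 and Ly6d, had 1345 CPM in 13 cells and 5465 CPM in 20 cells. Mitotic cells of the inner root sheath gate had 5026 CPM in 22 cells and 6931 CPM in 15. These cells were deep, at medians of 25424 and 17291 UMIs, and held little Krt14, 573 and 632 CPM. Outside the keratinocytes, all cells gated as fibroblasts held 1896 and 2047 CPM of Mt1.

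Mt2 kept nearly the same order. It stood at 21.5 and 39.5 CPM in the Edn2 state, 33.8 and 52.1 in the Wfdc18 state, and 58.1 and 50.7 in the Fgf5 state. The Edn2 state was the lower of the first 2 in each library, while the order of the Wfdc18 and Fgf5 states differed between the libraries. It stood at 175 and 124 CPM in the Gdf10 state and at 247 and 232 CPM in the Krtdap state. The Krt24 gate, at 701 and 134 CPM, lay above the Gdf10 state in each library, and above the Krtdap state in replicate 1 but below it in replicate 2. The upper follicle gate held 391 and 1180 CPM.

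**Figure D1:**
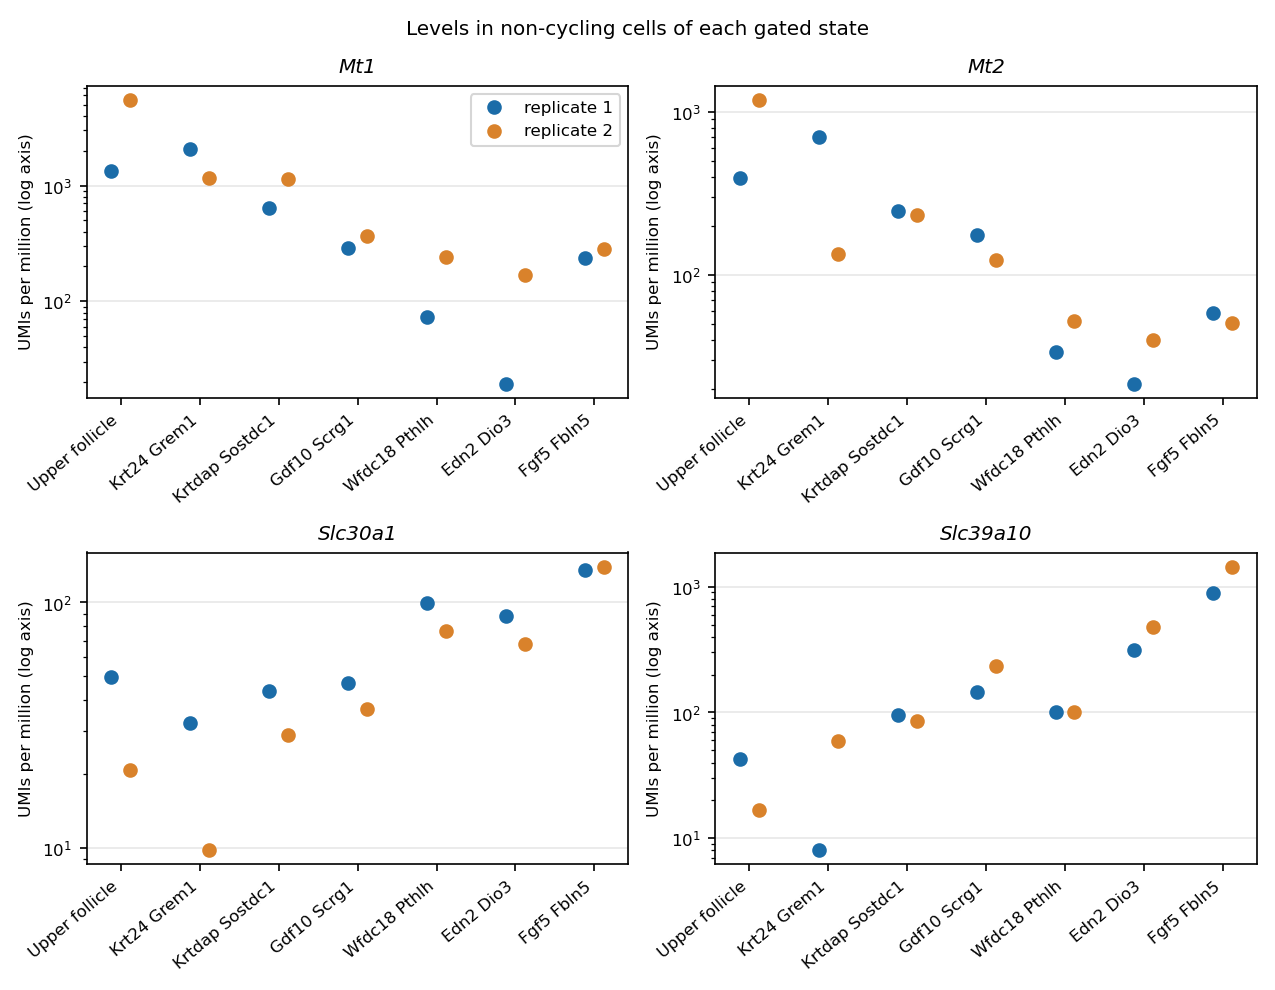
Levels of Mt1, Mt2, Slc30a1 and Slc39a10 (CPM, log axes) in non-cycling cells of 7 gated states, 1 point per library and no error bars. Mt1 and Mt2 run down from the upper follicle and Krt24 gates to the Edn2 state, while Slc39a10 runs up to 892 and 1444 CPM in the Fgf5 state; the Krt24 and upper follicle points of replicate 1 rest on 16 and 13 cells.

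Slc30a1, the exporter, had a different order. It was highest in the Fgf5 state, at 136 and 140 CPM. The Wfdc18 state followed at 99.4 and 76.4 CPM and the Edn2 state at 88.0 and 67.8, lower within each library but overlapping across them. The Gdf10 state had 47.1 and 37.0 CPM and the Krtdap state 43.5 and 28.9, again lower within each library with overlap across them. Among the non-cycling gates, Mt1 was highest where Slc30a1 was low: the Krt24 gate held 32.2 and 9.82 CPM of Slc30a1, from 4 and 13 UMIs, and the upper follicle gate 49.8 and 20.8 CPM, from 7 and 5. The inner root sheath gate, all cycle classes together, broke this pattern with 174 and 180 CPM of Slc30a1, the highest of any gate, beside 4141 and 6828 CPM of Mt1. Fibroblasts held 6.86 and 17.3 CPM of Slc30a1. The share of thinned cells (95% Clopper-Pearson interval) with a Slc30a1 UMI was 45.0% (38.2 to 52.0) and 44.0% (36.5 to 51.7) in the Fgf5 state and 11.9% (5.86 to 20.8) and 11.1% (6.72 to 17.0) in the Krtdap state, against 5.36% and 4.88% in fibroblasts.

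In ungated non-cycling cells Mt1 stood at 253 and 873 CPM, Mt2 at 121 and 219, Slc30a1 at 95.8 and 77.2 and Slc39a10 at 302 and 549. Each of these lay within the range spanned by the 5 states in the same library.

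Slc39a10, the importer, separated the states without overlap of the libraries among the 5 with enough cells. The Fgf5 state stood at 892 and 1444 CPM and the Edn2 state at 315 and 483. The Gdf10 state stood at 145 and 235 CPM. The Wfdc18 state stood at 101 and 100 CPM and the Krtdap state at 95.6 and 84.8. The order was the same in both libraries. Relative to the geometric mean of the other 4 states, the Fgf5 state was 6.16 and 8.20 times higher in Slc39a10, and 2.09 and 2.88 times higher in Slc30a1.

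The Fgf5 gate rests on Fgf5, which signals the end of hair growth, Fbln5, an elastic fibre protein, and Acta2, smooth muscle actin. Of its non-cycling cells, 84.4% (95% Clopper-Pearson interval 78.7 to 89.0) and 94.9% (90.5 to 97.6) had a Slc39a10 UMI after thinning to 5000 UMIs. In fibroblasts the share was 17.9% (8.91 to 30.4) and 9.76% (2.72 to 23.1), at median depths of 12722 and 15375 UMIs before thinning, against 10583 and 10059 in the Fgf5 state. In the upper follicle gate, 3 of 13 and 0 of 20 non-cycling cells had a UMI after thinning; before it, these cells held 6 and 4 UMIs, 42.7 and 16.6 CPM. The 0 allows a share of thinned cells of up to 16.8% by the same interval. These intervals cover counting error only.

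The summed level of the immediate early and heat shock genes was 22886 and 17504 CPM in the Krtdap state and 23262 and 20549 CPM in the Gdf10 state, the states with the most Mt1 among these 5. It was 19754 and 19259 CPM in the Edn2 state, where Mt1 was lowest, 16189 and 13635 in the Fgf5 state and 14060 and 16795 in the Wfdc18 state. The part of stress in the metallothionein levels was not tested.

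Few cells carried most of the metallothionein UMIs. Among thinned keratinocytes, 86.0% and 59.9% had no Mt1 UMI, while the highest cell had 84 and 177. The 5% of cells with the most Mt1 held 88.1% and 57.4% of its UMIs. The Fano factor, the variance over the mean, which is 1 for pure counting noise, was 30.2 and 32.9 for Mt1, against medians of 1.17 and 1.66 for genes of like mean. Every one of the 272 and 70 genes of like mean had a lower Fano factor than Mt1.

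Mt2 showed the same kind of spread, with Fano factors of 13.9 and 10.8 and with 86.5% and 62.4% of its UMIs in the top 5% of cells. The transporters did not. Slc30a1 had Fano factors of 1.56 and 1.40 and Slc39a10 had 3.37 and 5.89. Within non-cycling cells of the Wfdc18 state the Fano factor of Slc39a10 was 1.49 and 1.82, while that of Mt1 was 12.9 and 45.6.

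Cells with 10 or more Mt1 UMIs at 5000 UMIs numbered 118 of 3639 (3.24%) and 308 of 2792 (11.0%). Mt2 was detected in 98.3% and 92.9% of them, against 8.21% and 14.9% of the remaining cells. They were found in every gated state in both libraries, from 0.224% and 1.02% of the Edn2 state to 7.87% and 16.4% of the Krtdap state and 54.1% and 80.0% of the inner root sheath gate. Their median depth before thinning was 15114 and 15633 UMIs, against 10120 and 9694 for the rest; the part of depth or of doublets in these cells was not tested. Across cells, the Spearman correlation of Mt1 with Mt2 was 0.558 and 0.672, that of Mt1 with Slc30a1 was -0.01 and -0.04, and that of Slc30a1 with Slc39a10 was 0.10 and 0.20. These are descriptions over 3639 and 2792 cells that share a library, and the cells are not replicates.

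**Figure D2:**
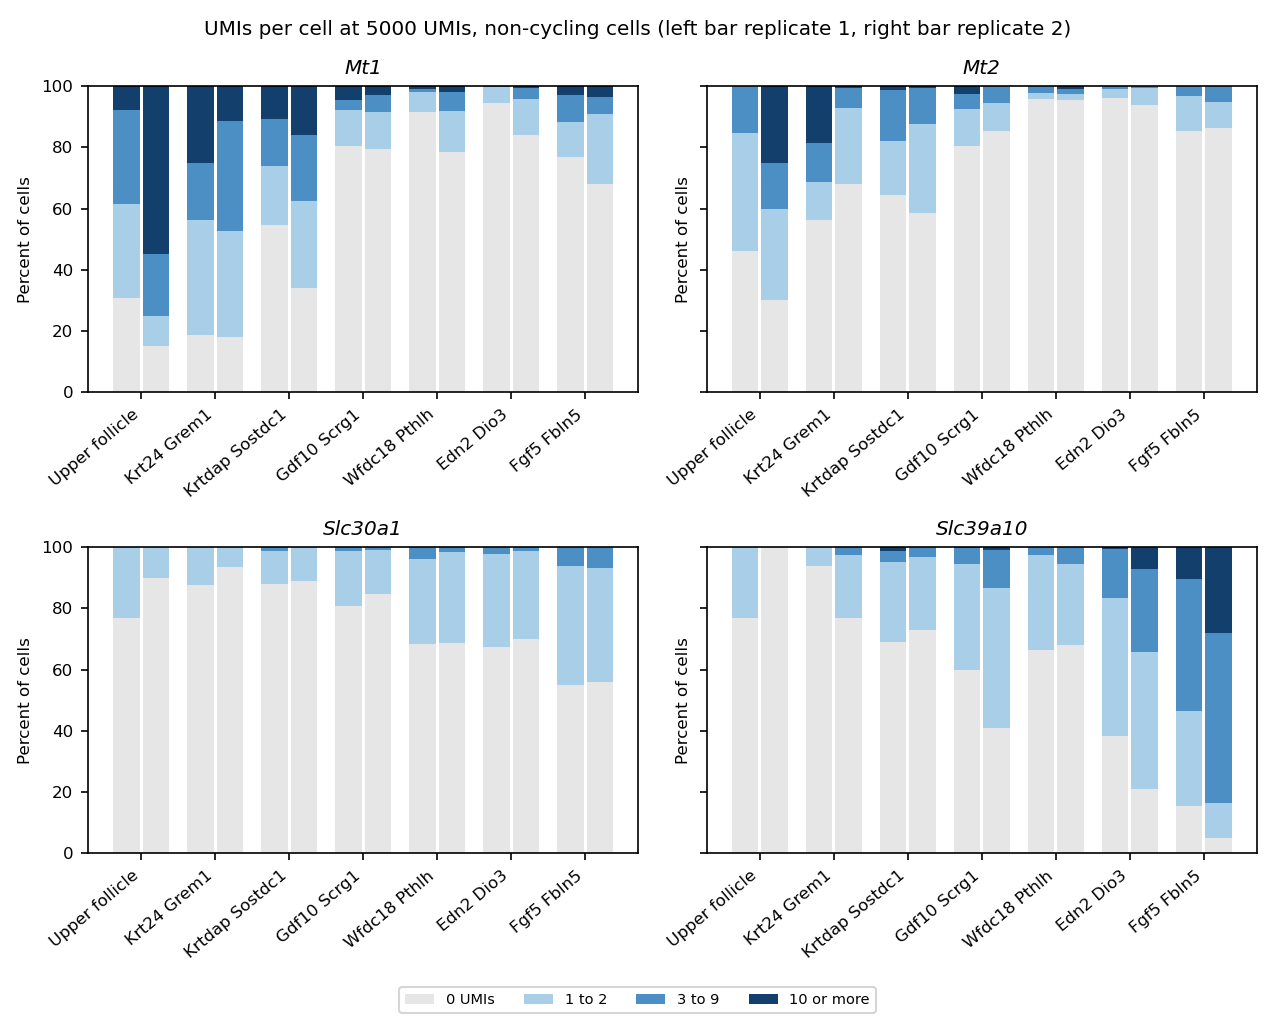
Percent of non-cycling cells with 0, 1 to 2, 3 to 9 and 10 or more UMIs of each gene after thinning to 5000 UMIs, by gated state, with replicate 1 as the left and replicate 2 as the right bar of each pair. In the 5 larger states except Krtdap, most cells have no Mt1 UMI beside a few with many, whereas Slc39a10 is detected in 84.4% and 94.9% of the cells of the Fgf5 state.

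Cell cycle classes were gated on 20 S phase and 14 mitotic markers. Over all keratinocytes, Mt1 stood at 210 and 712 CPM in non-cycling cells, 338 and 1310 in S phase cells and 562 and 1718 in mitotic cells. Mt2 stood at 95.7 and 154, 187 and 380, and 302 and 590 CPM in the same classes. Both metallothioneins were thus higher in mitotic than in non-cycling cells in each library, by ratios of 2.68 and 2.42 for Mt1. The inner root sheath gate held 42.8% of the mitotic Mt1 UMIs of replicate 1 in 22 cells and 10.2% of those of replicate 2 in 15. Without that gate, an alternative added after seeing the data, the mitotic ratios of Mt1 were 1.62 and 2.22 and those of Mt2 1.97 and 3.45. The S phase ratios of Mt1 were then 0.927 and 1.64 in place of 1.61 and 1.84, so in replicate 1 the direction changed. Slc30a1 stood at 90.2 and 66.3, 108 and 63.6, and 106 and 61.6 CPM, without a shared direction. Slc39a10 stood at 271 and 442, 257 and 277, and 219 and 261 CPM, lower in mitotic cells by ratios of 0.808 and 0.591. Mitotic cells were deeper, at medians of 12698 and 14543 UMIs against 9259 and 8903, and their stress genes were at 14862 and 12811 CPM against 17844 and 17165; the part of either in these differences was not tested.

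Within states the direction of the metallothioneins was not shared. In the Fgf5 state, Mt1 stood at 235 and 283 CPM in non-cycling and at 1239 and 3567 CPM in mitotic cells, ratios of 5.28 and 12.6. In the Wfdc18 state it stood at 73.1 and 244 CPM in non-cycling and at 16.5 and 50.9 CPM in mitotic cells, ratios of 0.226 and 0.209. The summed level of Mt1 was thus higher in mitotic than in non-cycling cells in one state and lower in the other, in both libraries. In the Fgf5 state the highest mitotic cell of each library held 33.8% and 20.2% of the mitotic Mt1 UMIs. In the Wfdc18 state the mitotic sums rest on 68 and 62 Mt1 UMIs. The ratios were 2.23 and 2.64 in ungated cells, 1.10 and 2.83 in the Gdf10 state, 9.61 and 1.33 in the Edn2 state and 0.280 and 0.838 in the Krtdap state. In the Edn2 state of replicate 1, 1 of the 88 mitotic cells held 86.0% of the 229 Mt1 UMIs, and in the Gdf10 state of replicate 2, 1 of the 42 held 57.5%.

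Mt2 was higher still against its non-cycling level in the Fgf5 state, at 566 and 972 CPM in mitotic cells, ratios of 9.75 and 19.2. In the Wfdc18 state its mitotic cells had 12.6 and 12.3 CPM, from 52 and 15 UMIs, ratios of 0.374 and 0.236. In the Krtdap state the libraries parted, with ratios of 0.498 and 1.29. S phase cells of the Fgf5 state had 242 and 1018 CPM of Mt1, ratios of 1.03 and 3.60, and 79.3 and 291 CPM of Mt2, ratios of 1.37 and 5.73. In replicate 1, S phase cells of this state thus lay near the non-cycling level and far below the mitotic one. In the Edn2 state the S phase ratios of Mt1 were 1.04, near the non-cycling level, and 0.364. They rest on 15 and 19 S phase UMIs of Mt1, against 39 and 208 in non-cycling cells. The mitotic levels of Mt1 there were 187 and 223 CPM.

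These mitotic differences moved with the gate. With gating on 3000 UMIs in place of 5000, the mean log2 difference of Mt1 was 1.75 in place of 3.03 in the Fgf5 state and -0.31 in place of -2.20 in the Wfdc18 state, where that of Mt2 changed sign, to 0.33 from -1.75. The Mt1 ratio in the Fgf5 state rested on few cells. In replicate 1, 3 of the 63 mitotic cells held 76.4% of the thinned Mt1 UMIs, and in replicate 2, 2 of the 35 held 35.8%. The share of cells with an Mt1 UMI was 15.9% (7.88 to 27.3) in mitotic and 23.2% (17.7 to 29.5) in non-cycling cells of replicate 1. In replicate 2 it was 48.6% (31.4 to 66.0) and 32.0% (25.2 to 39.5). The intervals overlapped in each library, and the direction of the share differed between them. In the Wfdc18 state the share was 6.13% (3.73 to 9.41) and 8.33% (3.67 to 15.8) in mitotic cells and 8.42% (6.31 to 10.9) and 21.6% (16.1 to 28.1) in non-cycling cells.

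Slc39a10 differed in the opposite sense between those states. In the Fgf5 state it stood at 892 and 1444 CPM in non-cycling, 563 and 1013 in S phase and 412 and 1049 in mitotic cells. In the Wfdc18 state it stood at 101 and 100 CPM in non-cycling, 162 and 154 in S phase and 119 and 148 in mitotic cells. The S phase ratios were 0.632 and 0.701 in the Fgf5 state, 0.751 and 0.686 in the Edn2 state and 1.61 and 1.54 in the Wfdc18 state. In the Wfdc18 state the share of cells with a UMI was 33.5% (29.7 to 37.5) and 32.0% (25.5 to 39.0) in non-cycling and 52.5% (43.1 to 61.8) and 51.5% (38.9 to 64.0) in S phase cells. Slc30a1 was lower in S phase cells of the Fgf5 state, at 121 and 97.7 CPM, and higher in those of the Wfdc18 state, at 128 and 120 CPM, ratios of 1.28 and 1.57. For Slc30a1 the mitotic ratios lay between 0.763 and 1.69 over both libraries and 6 states, with ungated cells counted as a state.

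**Figure D3:**
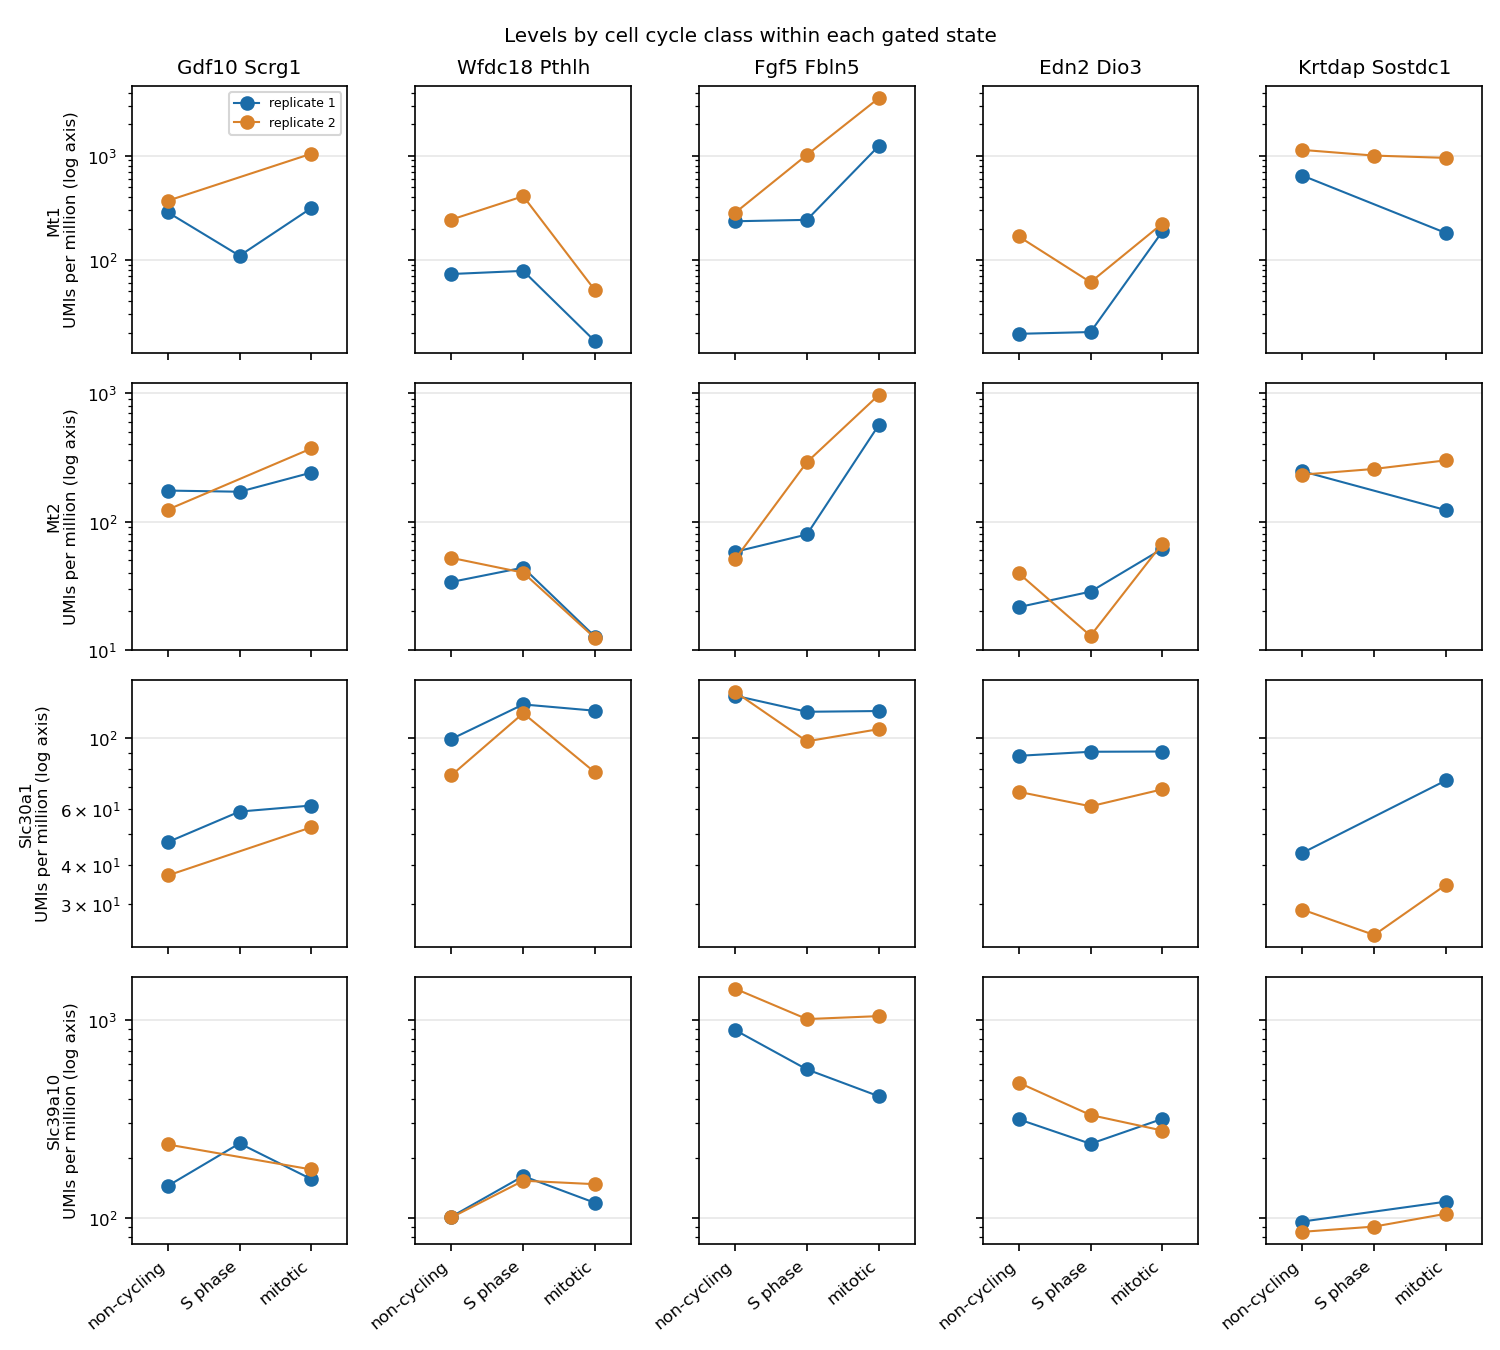
Levels (CPM, log axes shared along each row) in non-cycling, S phase and mitotic cells of 5 gated states, 1 line per library, for sums of at least 20 cells and with no error bars. Mt1 and Mt2 are higher in the mitotic than the non-cycling class in the Fgf5 state and lower in the Wfdc18 state, and Slc39a10 is highest in the non-cycling class of the Fgf5 state.

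Across 42 sums of at least 20 cells, 21 per library, the genes whose log2(CPM + 10) followed each member most closely were sought among 10597 genes, with gate markers left out. Mt1 was most like Mt2, with a Pearson r of 0.91. The next were Itga2, an integrin subunit that binds collagen, at 0.78 for Mt1 and 0.83 for Mt2, and Asap1, a GTPase-activating protein for ARF, at 0.77 and 0.73. Slc30a1 was most like Atp6v1g1, a subunit of the proton-pumping vacuolar ATPase, at 0.87, Ybx3, an RNA and DNA binding protein, at 0.86, and Fkbp1a, a peptidyl-prolyl isomerase, at 0.86. Slc39a10 was most like Aebp1, a secreted collagen-binding protein, at 0.95, Flrt2, a membrane protein of cell adhesion and guidance, at 0.94, and Porcn, the acyltransferase needed for Wnt secretion, at 0.94. Aebp1 stood at 208 and 353 CPM in the Fgf5 state and at 24.2 and 32.2 CPM in the Wfdc18 state. Among the members, r was -0.26 for Mt1 with Slc30a1 and 0.47 for Slc30a1 with Slc39a10. The sums share libraries and cell classes, so these values are descriptions.

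The genes that surround the 4 in zinc and redox biology were tested. The lists, like the members, were chosen with earlier results of these data known, so the tests are not independent of that choice. Of 71 genes in 8 lists, 59 passed the expression filter, and the edgeR quasi-likelihood test, Benjamini-Hochberg adjusted over 10662 genes, was run on 44 sums of state, cycle class and library. The sums come from 2 libraries, so the 21 residual degrees of freedom overstate the replication and the p-values may be too small; they measure only the spread between these sums, which may be technical. The comparisons of states share their sums, so they are not independent of each other. Each state was set against the mean of the other 4, in non-cycling cells.

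In the Fgf5 state, 2 of 9 other ZIP importers were higher and none lower. Over all genes tested, 21.4% passed in that state, 10.5% higher and 10.9% lower. Slc39a14, the ZIP14 importer of zinc and iron, stood at 131 and 157 CPM there and at 27.6 and 28.8 CPM in the Wfdc18 state, and rose by a log2 fold change of 1.49 ± 0.15 (SE; edgeR adjusted p = 1.42e-09). Slc39a6, the ZIP6 importer, rose by 0.65 ± 0.16 (edgeR adjusted p = 0.00228). Of 5 other ZnT exporters, Slc30a6, which loads zinc into secretory compartments, was higher by 0.85 ± 0.22 (edgeR adjusted p = 0.00361). The median log2 fold change was 0.00 for the ZIP list, 0.14 for the ZnT list and -0.01 for all genes.

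In the same state 5 of 8 NRF2 targets and 3 of 8 iron handling genes rose, with 1 and 0 lower, while of 8 copper handling genes 2 fell and none rose. Slc7a11, the cystine importer that feeds glutathione synthesis, stood at 194 and 189 CPM in the Fgf5 state and at 10.2 and 8.43 CPM in the Wfdc18 state, a log2 fold change of 4.45 ± 0.29 (edgeR adjusted p = 3.29e-14). Tfrc, the transferrin receptor, rose by 1.89 ± 0.21 and Steap3, the endosomal ferrireductase, by 2.47 ± 0.39 (edgeR adjusted p = 1.11e-08 and 1.06e-05). Gclm, a subunit of the rate-limiting enzyme of glutathione synthesis, rose by 1.26 ± 0.22 (edgeR adjusted p = 5.13e-05). The NRF2 target that fell was Nqo1, by 1.04 on the log2 scale. Of 5 glucocorticoid-induced genes tested, 1 rose and 2 fell, among the latter Tsc22d3, by 1.46 (edgeR adjusted p = 0.00281). Of 14 immediate early and heat shock genes, 6 fell and none rose.

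In the Edn2 state, the other state with much Slc39a10, Slc39a14 rose by 1.23 ± 0.16 (edgeR adjusted p = 1.37e-06), the only call among the zinc transporter lists. Over all genes, 7.10% passed, 3.74% higher and 3.36% lower. Slc39a14 stood at 124 and 116 CPM. Slc7a11 and Tfrc rose by 1.43 and 1.19 (edgeR adjusted p = 0.0296 and 0.000694), and Gsr, glutathione reductase, by 0.86 (edgeR adjusted p = 0.000793). Of 8 NRF2 targets 2 rose and none fell, with a list median of -0.14 against -0.01 for all genes. Of 8 iron handling genes 1 rose. Fosb, an immediate early gene, and Klf9, a glucocorticoid-induced gene, were lower, at -0.62 and -0.54 (edgeR adjusted p = 0.00298 and 0.0284).

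The Krtdap state, high in Mt1 and Mt2 and low in both transporters, had lower values of 2 other zinc importers. The median log2 fold change was -0.01 for the ZIP list, -0.22 for the ZnT list and 0.03 for all genes. Slc39a14 fell by 1.51 and Slc39a6 by 1.46 on the log2 scale (edgeR adjusted p = 5.22e-06 and 2.11e-06), 2 of the 9 ZIP genes, with none higher. Slc30a4, a ZnT exporter of vesicles, fell by 0.84 (edgeR adjusted p = 0.00999). Over all genes, 16.1% passed, 9.21% higher and 6.91% lower. Of 8 NRF2 targets 4 fell, and Nqo1 rose by 1.29 ± 0.29. Slc7a11 fell by 4.39 and Gsr fell by 2.31. Among 8 iron handling genes Tfrc fell by 3.05, while Fth1, a ferritin subunit, rose by 0.41 ± 0.14 and Ncoa4, the ferritin autophagy receptor, by 0.74 ± 0.21. Tsc22d3 rose by 1.92 ± 0.29 (edgeR adjusted p = 6.05e-06). Of the 5 glucocorticoid-induced genes tested, Tsc22d3 was the 1 that passed in this state, and Fkbp5, Sgk1, Per1 and Klf9 did not. The part of glucocorticoids in the Mt1 level was not tested. Of 14 immediate early and heat shock genes, 5 rose there and none fell, led by Socs3 (1.06 ± 0.21) and Fosb (0.91 ± 0.12); their part in the Mt1 level was not tested.

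In the Wfdc18 state the ZIP genes split. Slc39a6 rose by 0.81 ± 0.15 and Slc39a14 fell by 1.30 on the log2 scale (edgeR adjusted p = 9.54e-05 and 9.29e-07), and Slc30a4 rose by 0.49 ± 0.17 (edgeR adjusted p = 0.0305). Over all genes, 20.3% passed, 11.3% higher and 8.94% lower. Of 8 copper handling genes, 3 rose and 1 fell, with Slc31a2, the CTR2 copper transporter of vesicles, up by 0.91 ± 0.16. Of 14 immediate early and heat shock genes, 5 fell and none rose. Txnrd1, thioredoxin reductase, fell by 1.51 and Srxn1, sulfiredoxin, rose by 2.20 ± 0.56. Srxn1 was low in every state, at 4.94 and 3.97 CPM in this one and 4.84 and 0.63 CPM in the Krtdap state. In the Gdf10 state no ZIP or ZnT gene passed the test, while 13 genes of the other lists rose and none fell, against 6.09% and 1.45% of all genes (7.54% in either direction). These were 9 of 14 immediate early and heat shock genes, Hmox1 (heme oxygenase 1) at 1.30 ± 0.25, Txnrd1 at 1.01 ± 0.17, Sgk1 and Per1. The count of 13 was 5 without the library term and 24 at a mitochondrial limit of 5%, where the Krtdap state was not among the other states.

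**Figure D4:**
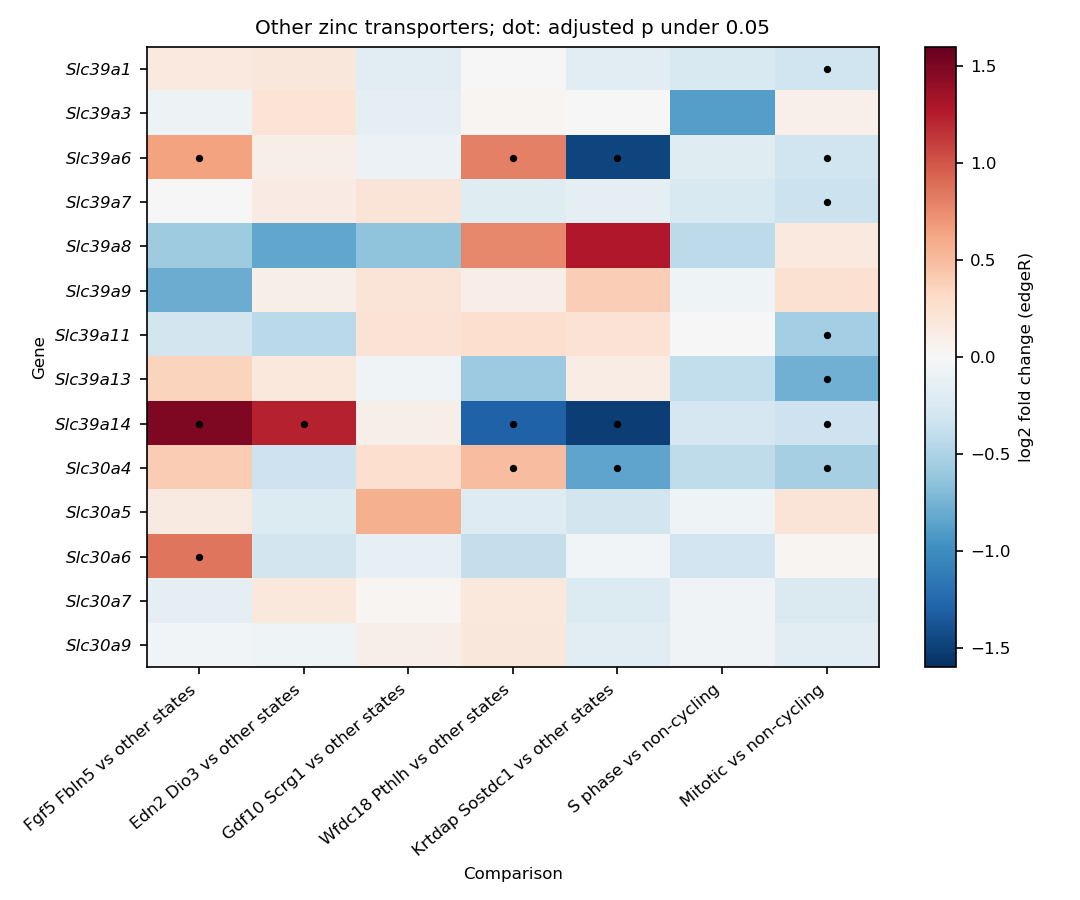
Log2 fold change (color, edgeR) of the 14 tested zinc transporters other than the members in 7 comparisons, with a dot where the adjusted p was under 0.05. Slc39a14 is higher in the Fgf5 and Edn2 states (1.49 and 1.23) and lower in the Wfdc18 and Krtdap states, and the mitotic column holds 7 dots, each on a lower value.

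Between cycle classes, mitotic cells were compared with non-cycling cells within 6 states and S phase cells within 4, with ungated cells counted as a state in each. In mitotic cells 6 of 9 ZIP genes and 1 of 5 ZnT genes fell and none rose, against 18.4% of all genes higher and 24.7% lower (43.2% in either direction). The largest was Slc39a13, the ZIP13 transporter of vesicles, at -0.76 ± 0.16 (edgeR adjusted p = 0.000163). Slc39a11, Slc39a7, Slc39a14, Slc39a1 and Slc39a6 lay between -0.54 and -0.32, and Slc30a4 at -0.54 ± 0.11. The median was -0.32 for the ZIP list, -0.16 for the ZnT list and -0.09 for all genes. With no scaling beyond library size the median of all genes moved up by 0.11, and the calls over all genes were 2655 higher and 1656 lower in place of 1967 and 2637; the changes given here are on the TMM scale.

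Mitotic cells also had lower immediate early and heat shock genes (14 of 14 fell), lower Hmox1 (-1.01 ± 0.19) and lower Klf9 (-0.83 ± 0.08), Sgk1 (-0.69 ± 0.08), Per1 and Tsc22d3 of the glucocorticoid list. Fkbp5, the FKBP51 co-chaperone of the same list, rose by 1.35 ± 0.23 (edgeR adjusted p = 1.03e-05). Its levels were low, for ungated cells 3.94 and 3.31 CPM in the non-cycling and 8.02 and 9.24 CPM in the mitotic class. In S phase cells no ZIP or ZnT gene passed the test, with a ZIP median of -0.24 against -0.08 for all genes. Over all genes, 13.7% passed, 7.81% higher and 5.93% lower. Fkbp5 rose by 1.28 ± 0.37 (edgeR adjusted p = 0.016), and 16 list genes fell, 11 of them immediate early or heat shock genes.

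Mtf1, the zinc sensor itself, stood at 4.92 to 20.9 CPM over all sums of the 5 states and ungated cells and passed the test in no comparison. Mt3 reached 2.37 CPM and Mt4, the metallothionein of stratified epithelia, 20.6 CPM at most.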

How the data were processed

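The deposited matrices hold raw UMI counts per gene and barcode, with no normalization; per the submitters' processing notes the authors used Cell Ranger 3.1.0 with mm10, and Seurat 3.1. The gene models and the number of animals were not given in the sources used here. Members and all lists were chosen with earlier results of these data known. The follicle states are gates on marker genes and not the clusters of the study.

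Barcodes with under 1000 genes or over 10% of UMIs from mitochondrial genes were dropped. Each cell was thinned to 5000 UMIs (seed 1) for gating. A state needed at least 2 of its markers and the highest share of its list, mitosis at least 3 of 14 mitotic markers, S phase at least 5 of 20 S phase markers with at most 1 mitotic marker, and non-cycling at most 2 and 1. Levels are all UMIs of the gated cells, scaled to 1000000. Detection and spread use thinned cells. Doublets were not removed, except in an alternative that left out the highest Scrublet scores (0.8% for every 1000 barcodes), since doublet calls are estimates. Intervals are exact 95% Clopper-Pearson and cover counting error only.

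Counts were summed per state, cycle class and library for the 22 groups with at least 20 cells in both libraries and fitted with edgeR 4.0.16 (R 4.3.3), the two-sided quasi-likelihood test, TMM and the edgeR filter, with a library term and Benjamini-Hochberg adjustment at 0.05. The term pairs the sums because same-numbered sums are cells of the same library. The fit was tested on simulated data. Per comparison, some or all of the up to 6 list genes with the largest change among those called are named. Every called zinc transporter is named too. A few more were chosen after their values were seen. DESeq2 1.42.0 was an alternative, and Python 3.11.15 with scanpy 1.11.5, pandas 2.3.3, scipy 1.17.1, numpy 2.4.6 and matplotlib 3.10.9 did the rest. Gene coordinates are from GENCODE M21.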

Additional observations from a re-analysis of the deposited data

Results flagged for a closer look

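Each member was searched, in mitotic and in S phase cells, for states that differed in direction. A set of 6 differences between cycle classes had opposite directions in a pair of states, with both libraries going up in one and down in the other. The pair given is the state with the clearest rise and that with the clearest fall, so the gaps are picked extremes. None of these differences between states was tested. Values are mean log2 differences over the 2 libraries.

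Mt1, mitotic minus non-cycling, was 3.03 in the Fgf5 state and -2.20 in the Wfdc18 state, 5.23 apart. Mt2 was 3.77 and -1.75 in the same states, 5.52 apart. The Wfdc18 value of Mt2 rests on 52 and 15 mitotic UMIs and changed sign under other gates, as given below. Slc39a10, mitotic minus non-cycling, was 0.32 in the Krtdap state and -0.79 in the Fgf5 state, 1.11 apart, and in S phase it was 0.65 in the Wfdc18 state and -0.59 in the Fgf5 state, 1.24 apart. Slc30a1, mitotic minus non-cycling, was 0.44 in the Gdf10 state and -0.28 in the Fgf5 state, 0.72 apart, and in S phase it was 0.51 in the Wfdc18 state and -0.34 in the Fgf5 state, 0.85 apart. Its sums were small, with 69 and 32 UMIs in mitotic Gdf10 cells and 29 and 38 in S phase Fgf5 cells.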

How the results depend on the processing

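Of 42 alternative values of the 5 main member differences none changed sign, and 17 alternative values of other member differences did. The 42 include values with 1 library left out, which could not change sign because both libraries had the same sign. Of the 42, 12 moved by at least the standard deviation between the libraries. No difference of Mt2 is among the 5. Mean log2 differences follow. Mt1, mitotic minus non-cycling in the Wfdc18 state, was -2.20, and became -0.31 with gating on 3000 thinned UMIs, -0.73 with gating on all UMIs, -0.81 with 1 more marker, -2.99 at a mitochondrial limit of 5%, -2.49 without the highest Scrublet scores, -2.34 as a mean of per-cell CPM and -1.13 without the 5% of cells of each sum highest in the gene, an alternative chosen after seeing the data, as was a minimum of 10 cells. In the Fgf5 state it was 3.03, and 1.75 with gating on 3000 UMIs. Mt1 in the Krtdap state against the other states was 2.43, 1.83 with gating on 3000 UMIs and 3.76 without the top cells. Slc30a1 in the Fgf5 state was 1.30, and 0.84 with 1 more marker; Slc39a10 there was 2.83, and 3.21 with gating on 3000 UMIs. With either library left out these values ranged from -2.26 to -2.15, 2.40 to 3.66, 2.15 to 2.70, 1.06 to 1.53 and 2.62 to 3.04, in the order given.

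Sign changes follow. Gating on all UMIs gave Mt1 S phase -1.38 in the Wfdc18 state and -0.35 in ungated cells, Mt2 S phase -0.40 in ungated cells, Mt2 in the Fgf5 state 0.00027, Slc30a1 S phase 0.075 in the Fgf5 state and Slc30a1 mitotic -0.18 in the Edn2 state and 0.20 in ungated cells. Gating on 3000 UMIs, with Krt24 among the other states, gave Mt2 mitotic 0.33 (Wfdc18), Mt2 0.32 (Fgf5) and Slc39a10 0.017 (Gdf10). With 1 more marker, where these lacked Krtdap, Mt2 was 1.18 (mitotic, Wfdc18 state) and 2.06 (Fgf5 state). Mt1 S phase in the Wfdc18 state was -1.79 without the highest Scrublet scores, -0.25 as a mean of per-cell CPM and -1.11 without the top cells, which gave Mt2 0.58 in the Fgf5 state. A limit of 5%, also without Krtdap, gave Slc30a1 -0.23 in the Edn2 state. The cause was not tested.

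Counts of list genes called moved by over 1.5 times as follows. Without the library term, the replicate block, they were 4 in place of 17 in S phase. By state they were 5 in place of 13 (Gdf10), 12 in place of 19 (Wfdc18) and 15 in place of 23 (Fgf5). They were 2 in place of 6 (Edn2) and 10 in place of 18 (Krtdap). With 1 more marker they were 18 in place of 37 in mitosis, 9 in S phase and 25 in the Gdf10 state; at the 5% limit, 8 in S phase and 24 in the Gdf10 state; without scaling, 8 in the Gdf10 state; with gating on 3000 UMIs, 8 in the Krtdap state; with a minimum of 10 cells, 10 in the Edn2 and 8 in the Krtdap state. No scaling beyond library size changed the split of higher and lower calls over all genes to 1598 and 883 in place of 1121 and 1158 in the Fgf5 state, 508 and 283 in place of 399 and 358 in the Edn2 state, 459 and 282 in place of 649 and 155 in the Gdf10 state and 951 and 434 in place of 833 and 632 in S phase. In S phase DESeq2 gave 932 and 427, and no filter 714 and 871. The Krtdap split of 982 and 737 became 577 and 240 with gating on 3000 UMIs and 496 and 115 with a minimum of 10 cells. With 1 more marker the Gdf10 split was 1195 and 521. Calls over all genes moved by over 1.5 times in mitosis (4604; 2563 with 1 more marker, 2527 at the 5% limit), S phase (1465; 823 at the 5% limit, 950 without the block), the Gdf10 (804; 1716 with 1 more marker, 320 without the block), Wfdc18 (2163; 1354 without the block), Fgf5 (2279; 1235 with 1 more marker, 1305 at the 5% limit, 1389 without the block), Edn2 (757; 1192 with 3000 UMIs, 448 with 1 more marker, 334 at the 5% limit, 297 without the block, 1523 with 10 cells) and Krtdap states (1719; 817 with 3000 UMIs, 1127 without the block, 611 with 10 cells). With 1 library there is no residual degree of freedom and no test. List genes called from both libraries could hardly change sign (132 and 133 of 133 instances kept it). The lowest Mt1 level, non-cycling Edn2 cells of replicate 1, rests on 39 UMIs.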
